A study of Mus musculus with 4 samples.

Results

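The TNF response of wild-type mouse embryonic fibroblasts was described from 2 arrays, 1 of unstimulated cells and 1 of cells given TNF, across 8251 genes represented by 10833 of the 12422 non-control probe sets. The members are all probe sets that the array's annotation ties to a single gene symbol, so no measured value chose them. Of the 8251 genes, 5911 had a signal above a floor of 92.5 on at least 1 of these arrays and are called measured here, and 2340 did not. The cells were embryonic fibroblasts from wild-type mice, kept in serum-containing medium, and the stimulated culture received 20 ng/ml of TNFa for 4 hours once confluent. The series holds 2 further arrays, from XIAP knockout embryonic fibroblasts without and with the same dose for the same time, and all cultures were grown in the same medium. The labels do not say how many embryos or cultures each RNA came from, what strain the mice had or which part of Xiap was deleted. Each condition has 1 array, so no value below has a replicate, an error or a test, and that number limits how precise any value is. A signal is a probe set's brightness in arbitrary units, and signals are compared only within a gene. The Xiap probe set read 239 and 126 on the wild-type arrays and 180.5 and 120.1 on the knockout arrays. Whether it lies in the deleted part was not given, so it does not check the labels.

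TNF is a cytokine made mostly by macrophages that binds TNF receptors on nearly every cell type. The receptor builds a complex of adaptor proteins, ubiquitin ligases and kinases that frees the transcription factor NF-kB from its IkB inhibitors, and a second arm activates the MAP kinases that drive AP-1. NF-kB then switches on chemokines that attract leukocytes, adhesion molecules that hold them, survival genes and its own inhibitors, so that the response limits itself. Fibroblasts are a tissue source of these chemokines, and a later wave of the response can run through secreted interferon, whose target genes carry an interferon-stimulated response element (ISRE) in their promoters.

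The stretch of 250 bases before the transcription start is shown for 6 genes that were higher with TNF, because it holds the letters that these factors are known to bind. The first 4, a chemokine, a cytokine, the IkB alpha gene and an adhesion molecule, have matches to NF-kB motifs in capitals. The last pair, both interferon-inducible, has matches to the ISRE core GAAANNGAA in capitals, on either strand. All are written 5′ to 3′ on the gene's own strand, from RefSeq on the GRCm38.p6 build, and matches to other motifs are left in lower case.
Cxcl1, chr5:90890995-90891244, plus strand: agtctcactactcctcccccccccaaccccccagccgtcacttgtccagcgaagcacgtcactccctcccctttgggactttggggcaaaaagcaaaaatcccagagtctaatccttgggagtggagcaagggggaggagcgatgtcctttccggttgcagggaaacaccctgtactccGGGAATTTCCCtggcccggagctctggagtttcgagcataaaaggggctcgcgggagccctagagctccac
Il6, chr5:30012864-30013113, plus strand: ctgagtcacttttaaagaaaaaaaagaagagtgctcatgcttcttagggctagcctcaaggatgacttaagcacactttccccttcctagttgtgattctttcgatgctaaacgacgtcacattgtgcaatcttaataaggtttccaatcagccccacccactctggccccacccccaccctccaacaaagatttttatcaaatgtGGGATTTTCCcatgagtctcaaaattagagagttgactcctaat
Nfkbia, chr12:55492648-55492897, minus strand: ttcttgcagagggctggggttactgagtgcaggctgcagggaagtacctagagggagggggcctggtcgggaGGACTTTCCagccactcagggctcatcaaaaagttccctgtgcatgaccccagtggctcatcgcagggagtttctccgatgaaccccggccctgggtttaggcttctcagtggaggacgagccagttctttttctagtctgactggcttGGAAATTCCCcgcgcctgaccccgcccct
Icam1, chr9:21015690-21015939, plus strand: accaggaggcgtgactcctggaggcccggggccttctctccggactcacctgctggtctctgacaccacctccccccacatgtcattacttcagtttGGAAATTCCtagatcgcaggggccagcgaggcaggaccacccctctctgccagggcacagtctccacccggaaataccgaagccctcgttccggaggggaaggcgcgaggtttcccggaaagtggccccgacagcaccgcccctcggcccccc
Isg15, chr4:156200819-156201068, minus strand: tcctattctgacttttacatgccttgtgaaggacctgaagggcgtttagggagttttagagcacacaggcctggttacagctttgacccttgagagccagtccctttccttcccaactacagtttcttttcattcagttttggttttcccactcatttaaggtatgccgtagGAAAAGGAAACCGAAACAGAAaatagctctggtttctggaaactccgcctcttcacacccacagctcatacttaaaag
Ifit1, chr19:34640639-34640888, plus strand: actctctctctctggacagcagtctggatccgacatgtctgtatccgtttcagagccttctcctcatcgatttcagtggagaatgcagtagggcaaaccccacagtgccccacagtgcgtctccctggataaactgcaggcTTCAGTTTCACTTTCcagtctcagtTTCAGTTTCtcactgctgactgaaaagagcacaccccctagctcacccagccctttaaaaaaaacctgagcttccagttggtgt

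In Cxcl1 the NF-kB match began 71 bases before the start on the gene's strand, with a match on the other strand shifted by 1 base. In Il6 it began 44 bases before the start. Nfkbia had a match that began 29 bases before the start and a short form, GGANNTTCC, that began 178 bases before it. Icam1 matched only the short form, 153 bases before its start. The 3 ISRE core matches of Isg15 overlapped in a single run of letters, the first of them 78 bases before the start, and Ifit1 had its 3 matches on the opposite strand, beginning 109, 103 and 84 bases before its start.

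Over the genes of the array, motifs in the same window were counted by script on both strands. Of the 156 genes at least 2-fold higher with TNF, 123 had a promoter in the table, and 29 of them (23.6%) matched the NF-kB consensus. The share was 11.2% of the 116 lower genes with a promoter, 10.8% of 4781 measured genes and 8.23% of all 27025 genes in the table. The short form GGANNTTCC, which can overlap the consensus, was present in 13.8% of the higher, 5.17% of the lower and 4.96% of the measured genes, and in 4.12% of all genes in the table. The ISRE core GAAANNGAA was present in 21.1%, 6.03%, 7.05% and 8.18% of the same sets. TTCNNNGAA, the site bound by STAT proteins, was present in 13.8%, 4.31%, 6.84% and 8.13%. The AP-1 motif TGANTCA was present in 14.6%, 6.90%, 6.02% and 7.82%. The CArG box of serum response factor was present in 1.63%, 1.72%, 1.51% and 1.62%. The higher genes therefore held the NF-kB, ISRE, STAT and AP-1 letters in a larger share of promoters than the measured genes did, while the lower genes and the CArG box stood close to the measured genes. These shares describe the letters in a 250-base window and were not tested. Either NF-kB form was found in 33 of the 123 higher genes (26.8%), against 13.4% of the measured genes. Either NF-kB form or the ISRE core was found in 55 (44.7%, against 19.5%). An NF-kB form together with the ISRE core was found in 4 (3.25%, against 0.962%).

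Of the 5911 measured genes, 156 (2.64%) had a signal 2-fold or more above the unstimulated level and 154 (2.61%) had one 2-fold or more below it. The sizes were uneven: 48 of the higher genes passed 4-fold and 17 passed 8-fold, while 1 lower gene passed 4-fold and 0 passed 8-fold. Log2 changes ran from -2.02 to 4.95, and 80.5% of measured genes stayed within 1.5-fold. A fold for which 1 array lay below the floor is a bound and is written as at least N-fold, which applied to 28 higher and 43 lower genes. A further consequence of the floor is that a gene measured on 1 array only had to differ in that array's direction, as was so for 113 genes above it only with TNF and 485 only without. The count of lower genes depended on how the arrays were brought to a common level. With equal medians in place of equal trimmed means the counts were 283 higher and 68 lower, with quantile normalization 192 and 82, and with the log ratio centred by loess along signal 212 and 65. All 156 higher genes stayed past 2-fold with equal medians and with loess, and 153 did with quantile normalization. Equal medians raises the change of genes above the floor on both arrays, so it could not take such a higher gene under 2-fold. With a floor at the 60th percentile 104 higher and 31 lower genes were left, and with a floor at the 20th percentile there were 250 and 643. In RNA from whole cultures, fewer cells of a type and less RNA per cell cannot be told apart.

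**Figure D1:**
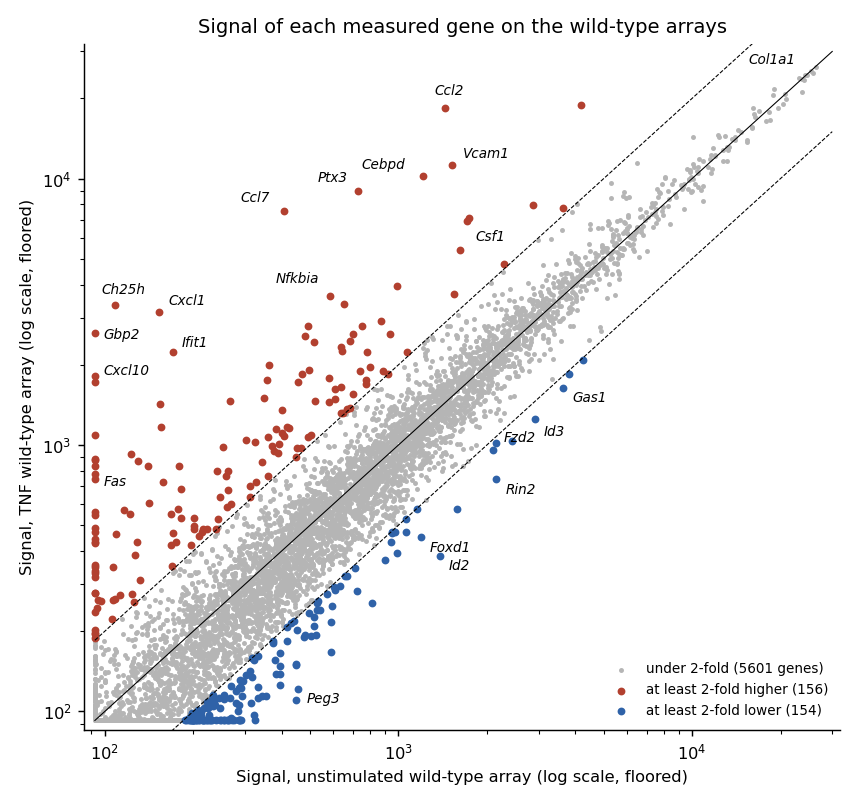
Signal of each of the 5911 measured genes on the unstimulated wild-type array (x axis, log scale) and on the TNF wild-type array (y axis, log scale), with signals under the floor drawn at the floor, a line of equal signal and dashed lines at 2-fold. The 156 higher genes (red) reach far from the line up to bright signals such as 18414 for Ccl2, while most of the 154 lower genes (blue) lie at the dim end near the dashed line.

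Among genes above the floor on both wild-type arrays, Ch25h had the largest log2 change, 4.95. Ch25h, whose enzyme makes 25-hydroxycholesterol, had a signal of 109 in unstimulated cells and 3355 with TNF, 30.9-fold higher. Gbp2, a guanylate-binding GTPase, went from 68.5 to 2626, at least 28.4-fold higher. H2-K2, a class I gene, went from 75.5 to 1718, at least 18.6-fold higher, and is uncertain because class I genes share sequence. Phlda1, a pleckstrin-homology protein gene, went from 88.3 to 888, at least 9.60-fold higher. In linear signal the largest gains were those of Ccl2, which gained most and reached 18414, and of Wdr92, Vcam1 and Cebpd. The Wdr92 value (4196 to 18941, 4.51-fold) rests on 1 probe set.

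The NF-kB subunits and their inhibitors, the core of the feedback loop, had 10 of 13 measured members at least 2-fold higher, 0 lower and a median log2 change of 1.89, where the median of all measured genes was -0.10. The list has 14 genes on the array. Nfkbia, which encodes the IkB alpha inhibitor, had a signal of 585 without and 3626 with TNF. Its second probe set gave a log2 change of 2.12, close to the 2.63 of the first. Bcl3, a nuclear IkB protein, went from 42.3 to 881, and Tnfaip3, the deubiquitinase A20, from 12.1 to 561, both from under the floor. Relb, a subunit of the alternative pathway, went from 363 to 1998 (5.50-fold), and its dimmer probe set went from 19.9, under the floor, to 174, a log2 change of at least 0.91. The inhibitor Nfkbie went from 253 to 985 and the subunit Nfkb2 from 453 to 1720.1. Inhibitors and subunits were thus higher together, while 2 kinase subunit genes that act before them were not: Ikbkb stood at 281 and 252 and Ikbkg at 458 and 272. These 2 kinase genes were named after their values were seen.

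Among TNF receptors and proximal signalling genes, 4 of 18 measured members were at least 2-fold higher and 0 lower. They were Tnfaip2 (654 to 3395, 5.19-fold), the ubiquitin ligase genes Birc3 (80.2 to 429, at least 4.64-fold) and Birc2 (223 to 485, 2.17-fold), and Tank (668 to 1368, 2.05-fold), an adaptor that binds TRAF proteins. The 2 Birc genes are adjacent on chromosome 9. Xiap itself, a further member of the inhibitor of apoptosis family, had signals of 239 and 126, a log2 change of -0.93. Tnf, the gene of the added cytokine, was under the floor on both arrays, at 17.1 and 19.1.

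Chemokine genes gave some of the largest changes. Of 6 measured CC chemokines and CX3CL1 (15 on the array), 5 were at least 2-fold higher. Of 5 measured CXC chemokines (9 on the array), 3 were, with 0 lower in either list. Only 2 of the CXC genes were above the floor on both arrays. Cxcl10 and Cxcl5 were above it only with TNF and so could only be higher. Ccl2, a monocyte attractant, had a signal of 1439 without and 18414 with TNF (12.8-fold), and its chromosomal neighbour Ccl7 went from 406 to 7577 (18.6-fold). Ccl5 went from 140.1 to 835 and Ccl9 from 182 to 684. The neutrophil attractant Cxcl1 went from 153 to 3157, 20.6-fold higher, and its second probe set gave a log2 change of 4.66. Cxcl10, which attracts activated T cells and is also interferon-inducible, went from 51.3 to 1810.5, at least 19.6-fold higher. The membrane-bound chemokine Cx3cl1 went from 1734 to 7086, but its dimmer probe set went from 125 to 88.9, under the floor, so its probe sets disagree in direction. Cxcl5, a neutrophil attractant beside Cxcl1, went from 25.4 to 196 (at least 2.12-fold). Cxcl12, the homeostatic chemokine that retains blood stem cells, was among the largest losses in linear signal, from 10849 to 8214, under 2-fold.

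Cytokine genes were mostly dim: of 27 on the array, 9 were measured, 2 of them at least 2-fold higher and 1 lower. Il6 went from 5.80 to 431, at least 4.66-fold higher. Csf1, the growth factor of macrophages, went from 1707 to 6916, 4.05-fold higher. Lta, which encodes lymphotoxin, went from 813 to 256, 3.18-fold lower. Among cytokine receptors 5 of 19 measured members were higher and 1 lower. Fas, the death receptor, went from 18.7 to 748 (at least 8.09-fold), the interferon receptor chain Ifnar2 from 493 to 2801 (5.68-fold), the oncostatin M receptor Osmr from 640.2 to 2247 (3.51-fold), Il15ra from 175 to 432 (2.47-fold) and Il13ra1 from 126 to 257 (2.04-fold). The second probe set of Ifnar2 gave a log2 change of 0.22, so the 2.51 of the probe set used was not shared. Csf1r, the receptor for Csf1 and a macrophage gene, went from 355 to 114, 3.12-fold lower, on the probe set used. Its other probe set was under the floor on both arrays, at 57.8 and 58.7, so the decrease rests on 1 probe set.

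Genes of leukocyte capture, the acute phase and tissue remodelling differed in a few members each. Icam1, which binds leukocyte integrins, went from 21.8 to 835 (at least 9.02-fold). Vcam1 went from 1518 to 11256 (7.41-fold), and its 3 probe sets gave log2 changes of 2.89, 3.17 and 1.93. With Cd44, the hyaluronan receptor (325 to 1024), they were the 3 of 21 measured adhesion genes past 2-fold. Of 14 measured acute-phase and complement genes, 2 were higher: Saa3 went from 123 to 924 and Hp, which encodes haptoglobin, from 383 to 1148. Of 5 measured pattern recognition genes 2 were higher, the cytosolic RNA sensor Ifih1 (196 to 420.4) and Ptx3. Ptx3, a secreted pattern-recognition protein that also builds hyaluronan matrix, went from 727 to 9014, 12.4-fold higher, and Has2, a hyaluronan synthase, from 109 to 462, 4.23-fold higher. The collagenase gene Mmp13 (348 to 1506) and its chromosomal neighbour Mmp3 (738 to 1891) were the 2 of 22 measured metalloproteinase and inhibitor genes past 2-fold. Of the prostanoid and oxysterol enzymes, 3 of 10 measured were higher: Ch25h, Ptgs2 (cyclooxygenase-2, 23.3 to 780.5, at least 8.44-fold) and Ptges, the prostaglandin E synthase (269.7 to 599, 2.22-fold).

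Early transcription factors were higher in 13 of 37 measured members and lower in 0, with a median log2 change of 0.83. With equal medians 20 of 37 were higher, and with a floor at the 60th percentile 8 of 34. Cebpd, a C/EBP factor of the acute phase, went from 1211 to 10227 (8.45-fold). The zinc finger factor Egr2 went from 82.3 to 472 and Egr1 from 518 to 2427. The AP-1 subunits Fosl1 (116 to 572), Junb (357 to 1748) and Fos (122 to 549) were all past 4-fold after 4 hours. Of the MAP kinase phosphatases and stress feedback genes, 3 of 17 were higher: the phosphatase gene Dusp6 (64.5 to 336), the kinase gene Sgk1 (302 to 1046) and Rgs16, a regulator of G protein signalling (178 to 574).

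The interferon-inducible GTPases, which attack the vacuoles of intracellular parasites, were at least 2-fold higher in all 8 measured members of 9 on the array, with a median log2 change of 2.25. The median moved with the floor, to 3.24 at the 20th percentile and to 1.06 at the 60th, where 5 of 7 measured members were past 2-fold. Ifi47 went from 63.1 to 1089, Gbp3 from 154 to 1429.8, Gbp7 from 50.4 to 488, Irgm1 from 141 to 606 and Iigp1 from 12.7 to 355. Of these genes 4 of the 8 were under the floor on the unstimulated array, and 4 were above it on both arrays. These genes are close relatives and may share hybridisation. Among the antiviral genes 10 of 26 measured members were higher and 0 lower (6 of 16 with a floor at the 60th percentile). Ifit1, which binds foreign RNA, went from 170.4 to 2230.3 (13.1-fold), Ifit3 from 268 to 1461 (5.46-fold), Rsad2, which encodes viperin, from 9.30 to 545 (at least 5.90-fold) and the ubiquitin-like Isg15 from 608 to 1619 (2.66-fold). Plscr1 went from 638 to 2325 and Ifi35 from 168 to 553. Of the regulators, Irf1 went from 482 to 2566 (5.32-fold), Jak2 from 158 to 725 (4.60-fold), and the inhibitors of cytokine signalling Socs1 (416 to 1170.0) and Socs3 (201 to 533) were also past 2-fold, the 4 of 19 measured members that were.

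Class I antigen presentation, by which cells show peptides to cytotoxic T cells, was higher in 9 of 15 measured members and lower in 0, with a median log2 change of 1.07. The class I gene H2-D1 went from 702 to 2617 and H2-K1 from 874 to 2915. The immunoproteasome subunit genes Psmb10 (686 to 2448) and Psmb8 (241 to 801) and the peptide transporter subunit Tap2 (106 to 261) were past 2-fold with them. B2m, the light chain shared by all class I molecules, was already bright and stood at 10074 and 11299; it was named after its values were seen. Of 31 measured constitutive proteasome and activator genes 1, the activator subunit Psme3 (649 to 1314), was past 2-fold, and the median log2 change was 0.23. Of 7 measured class II genes, Cd74, the invariant chain, was past 2-fold (378 to 953).

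Death and survival genes had some members past 2-fold in either direction, beside 2.64% higher and 2.61% lower of all measured genes. The higher shares of both lists were above that level, and the lower share of each rests on 1 gene. Among the Bcl-2 family and inhibitor of apoptosis genes, Birc3, Birc2 and Bid, which encodes a pro-apoptotic BH3 protein (495 to 1913, 3.87-fold), were higher and Bnip3 was lower (235 to 109.7, 2.14-fold), of 21 measured. Among caspases and death receptor genes, Fas and the inflammatory caspase gene Casp4 (49.9 to 279, at least 3.01-fold) were higher and Endog, a mitochondrial nuclease, was lower (204 to 97.5, 2.09-fold), of 16. In the enzymes of superoxide, glutathione and thioredoxin, Sod2, the mitochondrial superoxide dismutase, was the 1 of 36 past 2-fold (402 to 1358, 3.38-fold). The iron transporter gene Slc11a2 went from 519 to 1466, while its second probe set gave a log2 change of 0.47.

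Ribosome biogenesis, the making of ribosomes in the nucleolus, was looked at in a list chosen after the values were seen, as were the lists for Hedgehog, Myc and Max, Hox and FoxO genes below. Of the 67 that were measured, 8 passed 2-fold on the higher side and 1 on the lower, with a median log2 change of 0.30. With equal medians 13 were higher, and with a floor at the 60th percentile 5 of 53. Rpf2 went from 96.8 to 259, Rcl1 from 371 to 988, Tsr1 from 581 to 1446 and Rrs1 from 778 to 1757, each of them an assembly factor. Ribosomal protein genes themselves had a median of -0.0024 over 25 measured members, with 0 higher and 1 lower. In the Myc and Max network, with 8 measured, the activators Myc (259 to 766) and Mycl (78.6 to 278) were higher, while Max stood at 871 and 917. The Max partners that repress, Mxi1 (374 to 180.5) and Mxd4 (2146 to 1021), were lower, the lowest log2 change of the list being -1.07. Equal medians, which raised such changes by 0.28, put both of these repressors under 2-fold.

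**Figure D2:**
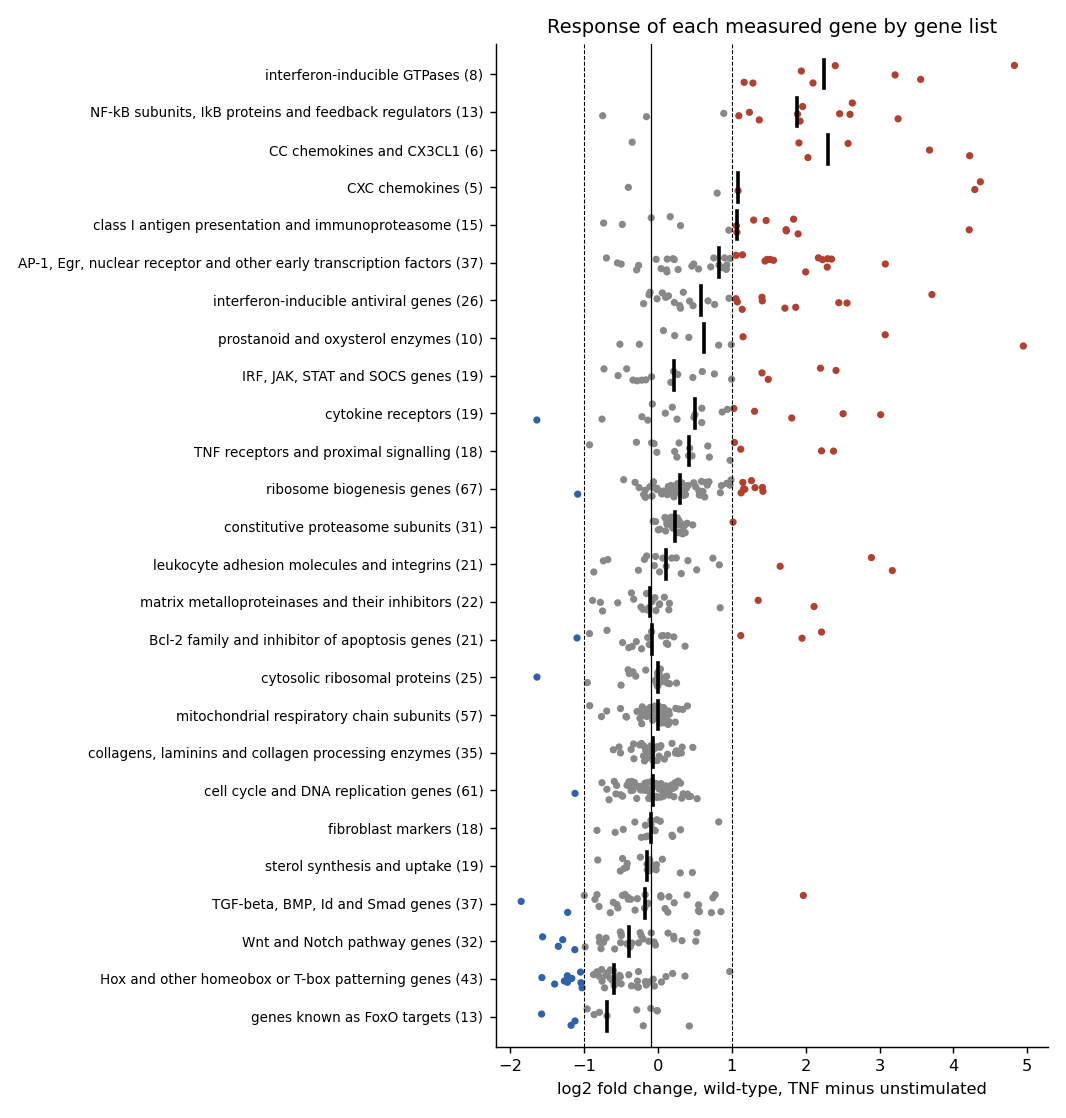
Log2 fold change (TNF minus unstimulated, wild-type arrays) of each measured gene in 26 gene lists, 1 point per gene, with the number measured in brackets, a thick bar at each list's median, dashed lines at 2-fold and a thin line at the median of all measured genes, -0.10. Interferon-inducible GTPases lie wholly past 2-fold, NF-kB genes mostly, and the medians of the homeobox and FoxO lists lie left of the median of all genes.

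The lower genes included developmental regulators and signalling receptors. Id2 and Id3, inhibitors of helix-loop-helix factors that BMP signals switch on, went from 1384 to 383 (3.61-fold lower) and from 2914 to 1248 (2.33-fold lower), and Smad6, a further BMP target, from 1236 to 619, just short of 2-fold. The list of 37 measured TGF-beta, BMP, Id and Smad genes had 2 members at least 2-fold lower. Its median log2 change was -0.17, near the -0.10 of all measured genes, with 16 members above 0 and 21 below. Fst, which encodes the activin and BMP antagonist follistatin, was the 1 of this list past 2-fold higher (470.0 to 1839.7, 3.91-fold). Of 32 measured Wnt and Notch genes 4 were lower and 0 higher, and the median log2 change was -0.40 (2 of 23 lower with a floor at the 60th percentile and 8 of 38 with one at the 20th). They were the Wnt receptor genes Fzd1 (725 to 284), Fzd7 (381 to 156) and Fzd2 (2096 to 960.4) and the Notch target Hey1 (332 to 112). Of 8 measured Hedgehog genes 3 were lower: the co-receptor genes Gas1 (3645 to 1640.4) and Cdon (283 to 100.4) and the transcription factor Gli2 (208 to 101). With equal medians 1 of the 8 was.

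Of 43 measured Hox, homeobox and T-box genes, which set body position and limb identity, 9 were at least 2-fold lower and 0 higher, with a median log2 change of -0.59. The forkhead factor Foxd1, which the list also holds, went from 1189.8 to 451, Pbx3, a cofactor of Hox proteins, from 1058 to 471, Dlx5 from 275 to 76.2 and Six2 from 288 to 123. The 3 probe sets of Pbx3 gave log2 changes of -1.17, -0.86 and -1.14. Dlx5 was under the floor with TNF, and so could only be lower. With equal medians 3 genes of this list were past 2-fold lower and 1 higher, and with loess also 3 and 1, with medians of -0.34 and -0.38. This list and the FoxO list were chosen after the values were seen, so their medians are no independent support for a decrease. Known FoxO targets had 3 of 13 measured members lower and 0 higher, at a median of -0.69: Sesn1 (449 to 150.5), Klhl24 (417 to 185) and Ccng2 (940.2 to 431). With equal medians 1 of them was past 2-fold, and with loess or quantile normalization 2 were. Of 16 measured imprinted genes 3 were lower and 0 higher: Peg3 (455 to 121), Peg10 (192 to 85.1) and Grb10 (204 to 27.6). The 3 probe sets of Peg3 gave log2 changes of -1.91, -1.33 and -0.98. The median of the imprinted list was -0.22, and with equal medians it changed sign to 0.05. The median of all measured genes moved with it, from -0.10 to 0.18, so the list stayed below all genes.

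The lower genes were concentrated among dim ones. Of the 154, 81 had a brighter wild-type signal under 300 and 14 had one of at least 1000, against 16 and 73 of the 156 higher genes. Split by mean log2 signal over both arrays, the dimmest of 5 equal groups of measured genes held 74 of the lower genes at a median log2 change of -0.30, and the brightest held 7 at a median of 0.04. The median signal over non-control probe sets was 151 on the TNF wild-type array and 183 on the unstimulated one, and 173 to 179 on the knockout arrays. Setting those medians equal raised the log2 change of every gene above the floor on both wild-type arrays by 0.28, which took Id3, Gas1, Fzd2, Pbx3 and Ccng2 to under 2-fold and left Id2, Fzd1, Fzd7, Foxd1, Dlx5, Peg3, Hey1 and Sesn1 past it. Of the 54 lower genes named by rule, 25 were under 2-fold with equal medians, 20 with loess and 17 with quantile normalization. Of the 99 higher ones, 0, 0 and 2 were. Equal medians raises these changes, and loess does so where the typical change at a signal is under 0. The losses among higher and lower genes are therefore not a like comparison of stability. The part of array signal level in the lower calls was not tested further.

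**Figure D3:**
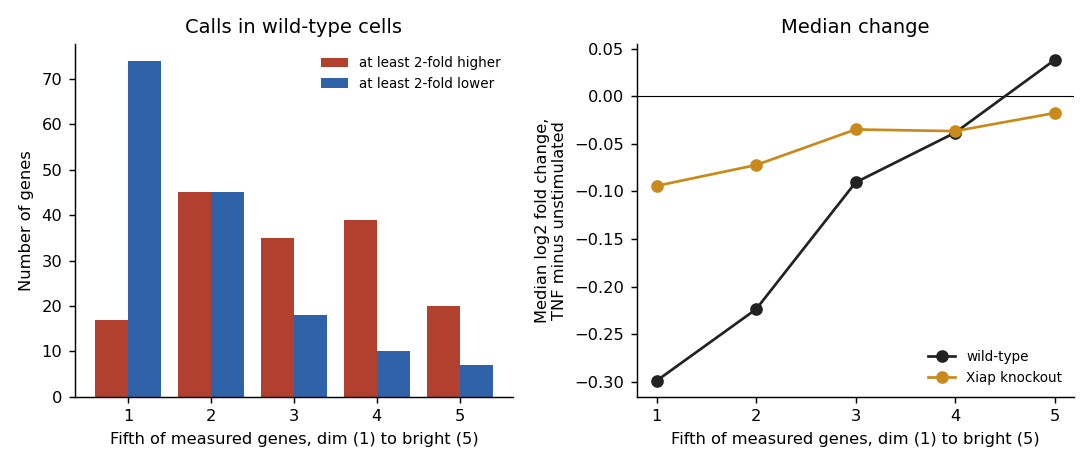
Left, number of genes at least 2-fold higher (red) or lower (blue) in wild-type cells in each of 5 equal groups of measured genes by mean log2 signal on the wild-type arrays; right, the median log2 fold change of the same genes in wild-type (black) and Xiap knockout (orange) cells. Lower calls number 74 in the dimmest and 7 in the brightest group, and the wild-type median runs from -0.30 to 0.04.

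Some of the largest decreases rest on 1 of a pair of probe sets. Mrm3, a mitochondrial RNA methyltransferase gene, had the most negative change, from 449 to 110.4, but its other probe set gave a log2 change of -0.08. Slc6a2, the noradrenaline transporter gene, went from 292 to 77.1 on the probe set used, while the other went from 22.8, under the floor, to 121, in the opposite direction. Of the 154 lower genes, 17 had at least 2 measured probe sets, of which 2 had every probe set past 2-fold and 15 had every probe set in the same direction. Of the 156 higher genes, 24 had at least 2, of which 9 had every probe set past 2-fold and 19 every one in the same direction. The 9 included Cxcl1, Flt1, Igfbp3, Junb, Nfkbia, Rgs16, Slfn2 and Vcam1. Flt1, a receptor for VEGF, went from 155 to 1172, and Slfn2, a Schlafen gene, from 129.5 to 868.

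Among 37 measured growth factor and receptor kinase genes 3 were higher and 2 lower. Vegfc, a lymphatic growth factor, went from 209.9 to 457 and the binding protein Igfbp3 from 505 to 1087, with Flt1 above. Fgf18 went from 198 to 18.0 and Kdr, the other main VEGF receptor, from 189 to 72.9, both ending under the floor. Flt1 was thus higher and Kdr lower, but with the floor the log2 change of Kdr was -1.03, just past 2-fold in the dim range. The matricellular gene Ccn1 went from 359.8 to 1074 and the kinase gene Plk2, a p53 target, from 1621 to 5379. Single members of further lists were lower: the small heat shock gene Hspb2 (495 to 234), the clock output gene Dbp (195 to 45.7) and the ribosomal protein gene Rps13 (288 to 89.1).

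Structural and housekeeping lists had few members past 2-fold. Mitochondrial respiratory chain subunits had 0 of 57 in either direction, at a median of -0.01. Collagens, laminins and their processing enzymes had 0 of 35, at a median of -0.07. Endoplasmic reticulum stress genes had 0 of 32, sterol synthesis genes 0 of 19 and fatty acid genes 0 of 23. Of 61 measured cell cycle and DNA replication genes, Ccng2 was the 1 past 2-fold. The contractile list had 1 of 24 higher, smoothelin, Smtn (126 to 388), and 1 lower, the non-muscle myosin gene Myh10 (589 to 217). These shares were at or below 2.64% and 2.61%, or rest on 1 gene.

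Fibroblast markers were present, with 18 of 19 above the floor on both wild-type arrays and 0 past 2-fold. Col1a1, a collagen I chain, had signals of 25902 and 24921, and the summed signal of the list was 107309 and 101459. Of 20 leukocyte markers on the array 9 were above the floor without and 5 with TNF, with summed signals of 3715 and 2563. Of the endothelial markers 4 of 10 and 0 of 10 were above it (summed signals 671 and 353), of the epithelial 2 of 15 on both arrays (1003 and 725), and of the muscle and neural 8 and 6 of 19 (3298 and 3358). Ptprc, the pan-leukocyte marker, stood at 7.20 and 4.50 and Itgam, the myeloid integrin CD11b, at 45.5 and 7.70, all under the floor, while Cd14 stood at 1899.8 and 1534. The endothelial cadherin gene Cdh5 (39.1 and 29.0) and the epithelial Epcam (6.40 and 3.30) were under the floor, and the muscle factor Myod1 was above it (212 and 179). No marker on any of the 4 lists was at 0, and none was 2-fold or more higher with TNF. At least 2-fold lower were 1 leukocyte, 1 endothelial and 1 muscle or neural marker. All 9 measured leukocyte and 4 endothelial markers had a log2 change below 0, as did 7 of 8 muscle and neural and 1 of 2 epithelial markers. Their part in the differences above was not tested.

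Some higher genes were chromosomal neighbours. Of the 156, 34 (21.8%) sat in 16 runs of at least 2 higher genes with no other measured gene between them in the order of RefSeq starts. The runs were the chemokine pairs Ccl2 with Ccl7 and Ccl5 with Ccl9 on chromosome 11, Cxcl5 with Cxcl1 on chromosome 5, the GTPases Irgm1 with Ifi47 and Igtp with Irgm2 on chromosome 11 and Gbp7, Gbp3 and Gbp2 on chromosome 3, and Ifit2, Ifit3 and Ifit1 on chromosome 19, among others. On chromosome 19 Fas was next to Ch25h and Rcl1 next to Jak2. Of the 154 lower genes, 18 (11.7%) sat in 9 runs, all of them pairs. Runs of related genes may share hybridisation, and no test of the runs was made. How many runs 156 of the 5901 placed genes would form by position alone was not worked out.

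The same genes were set beside their values in Xiap knockout cells, where 87 of 5868 measured genes (1.48%) passed 2-fold above the unstimulated level and 24 (0.409%) passed it below. Of the 142 higher wild-type genes measured on the knockout arrays, 136 (95.8%) were in the same direction there, where 41.8% of all genes measured in both were higher. Of the 142, 66 (46.5%) were past 2-fold in the same direction and 0 past 2-fold the other way. The 142 had a median log2 change of 1.58 on the wild-type arrays and of 0.94 on the others. Of the 145 lower genes, 111 (76.6%) were in the same direction in the knockout cells, where 58.2% of all genes measured in both were lower, 6 were past 2-fold, and the medians were -1.18 and -0.24. Choosing genes by their wild-type value by itself tends to place them nearer to 0 on the other arrays, so these medians do not compare the genotypes. All 14 lower genes with a wild-type signal of at least 1000 were lower in the knockout cells too, at a median of -0.53, while the 74 under 300 had a median of -0.18.

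Individual genes differed in both directions between the genotypes, with 1 array per condition. Ccl2 went from 173 to 18083 in knockout cells, a log2 change of 6.70 against 3.68 in wild-type cells, the knockout cells having the lower unstimulated signal. Mmp13 had a log2 change of 4.09 against 2.11 and Ccl7 of 6.18 against 4.22. Chrne, an acetylcholine receptor subunit gene, had 1.60 against -0.99, and Prrc2a, which went from 587 to 167 in wild-type cells, had 0.06 against -1.81. In the other direction Cebpd had one of 1.12 against 3.08, Rgs16 of -0.19 against 1.69, Nr4a1 of -0.42 against 1.45, Ptx3 of 1.79 against 3.63 and Cxcl1 of 2.61 against 4.37. Isg15 stood at 478 and 418 in knockout cells, and Ptgs2 was under the floor on both knockout arrays (57.3 and 85.8). Id2 was lower in both genotypes, from 279 to 114 in knockout cells. None of these differences has a replicate, and the genotypes cannot be told apart from the cultures.

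**Figure D4:**
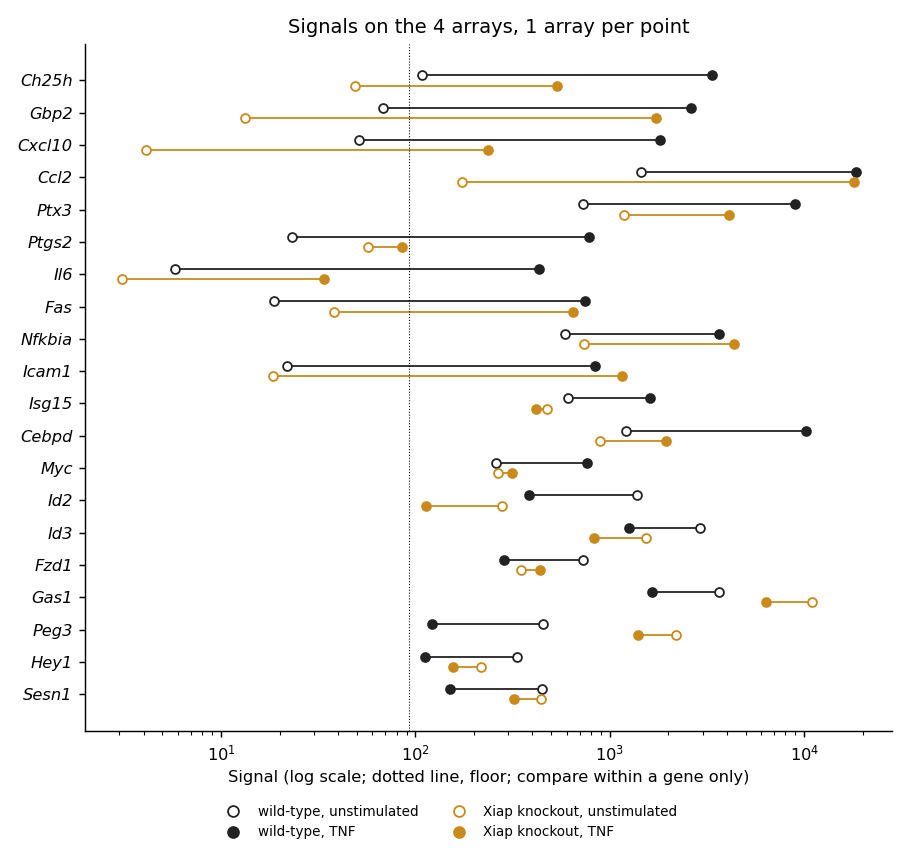
Signals of 20 genes on the 4 arrays (x axis, log scale), 1 point per array, open without and filled with TNF, black for wild-type and orange for Xiap knockout cells, with the floor as a dotted line. In wild-type cells the first 13 genes are higher and the last 7 lower with TNF; Isg15 and Fzd1 go the other way in the knockout pair.

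**Figure D5:**
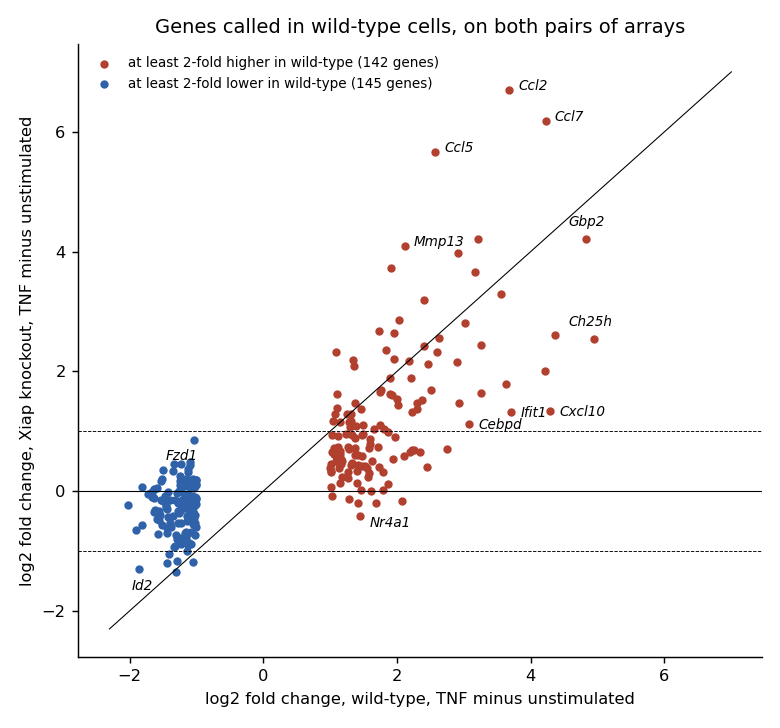
Log2 fold change with TNF in wild-type (x axis) and Xiap knockout cells (y axis) of the 142 higher (red) and 145 lower (blue) wild-type genes that were measured on both pairs of arrays, 1 point per gene, with the line of equal change and dashed lines at 2-fold. Most red points lie above 0, and the blue points spread around a median of -0.24.

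Genes on either side of 2-fold differed little. Just inside the higher side were Azin1 (923 to 1849), Phldb1 (448 to 901), Ifrd1 (682 to 1379.6), Psme3 and Mbd1 (239 to 485). Just outside it were Serpina3n (94.2 to 188), Irf5 (246 to 490.4), Ptger4 (50.9 to 184), Nhp2 (1252 to 2485) and Tagln2 (4058 to 8039). On the lower side Nfia (318 to 159), Ptprcap (417 to 208), Uqcc1 (951 to 473), Nr1i3 (439.8 to 219) and Dtd2 (431 to 214) were just inside. Smad6, Chrne (329 to 165), Icmt (216 to 108), Igll1 (194 to 97.7) and Tk2 (227 to 114) were just outside.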

How the data were processed

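RNA from each culture was hybridised to 1 single-colour Affymetrix U74Av2 array, 4 in all, and the deposited values are intensities on a linear scale, which the submitters' processing notes credit to MAS5. Their trimmed means, with 2% left out at each end, were 500.3 on every array. The sources used here give neither its version nor its scaling target. Detection calls were not used here. Probe sets were named through the platform annotation, with symbols updated by Entrez ID for 8237 of 8251 genes. Of the 12422 non-control probe sets, 396 carry several symbols and 1193 none and were left out. The arrays were brought to a common trimmed mean, signals under the 40th percentile of all arrays (92.5) were set to it, and log2 was taken. A gene with several probe sets is given by the one with the highest mean over the 4 arrays. The call is a log2 difference of at least 1, with no test. The alternatives were no rescaling, equal medians, quantile normalization, loess, floors at the 20th and 60th percentiles, a pseudocount of 32, both arrays above the floor, the mean of probe sets and the probe set chosen on the wild-type arrays.

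Genes named are the 20 most positive and 20 most negative changes, up to 6 called members of each list in each direction, the 10 brightest and the 10 largest linear gains and losses, the 5 on each side of the thresholds, the 5 largest differences between genotypes in each direction, up to 10 genes whose probe sets all passed or differed most, Xiap and Tnf. Cell type markers and genes said to be named after their values were seen are exceptions. The members and the 47 gene lists were chosen with earlier results of these data known, and 5 more lists were added after the values were seen. Promoters are RefSeq's. The computations used Python 3.11.15, pandas 2.3.3, numpy 2.4.6 and statsmodels 0.14.6, and were tested on simulated data.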

Additional observations from a re-analysis of the deposited data

Results flagged for a closer look

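In 4 named genes the wild-type and Xiap knockout changes had opposite signs, each by at least 0.25 on the log2 scale, and differed by at least 1. Chrne, an acetylcholine receptor subunit gene, had log2 changes of -0.99 in wild-type and 1.60 in knockout cells, a difference of 2.593. F11r, a tight junction protein gene, had -0.87 and 0.58, a difference of 1.449. Fzd1, a Wnt receptor gene, had -1.35 and 0.33, a difference of 1.684. Nr4a1, an early-response nuclear receptor gene, had 1.45 and -0.42, a difference of -1.872. With 1 array in each condition no difference was tested.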

How the results depend on the processing

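Of the 153 called genes named by rule, 0 reversed direction under any of the 10 alternatives in which they were still measured. For most alternatives that outcome was close to fixed for genes called at a log2 change of 1 or more. Equal medians moved changes by only 0.28, and a changed floor or a pseudocount cannot flip a sign. The 0 is therefore no measure of stability. Called genes named after their values were seen were not checked. A count past 2-fold has no direction to reverse, so counts were compared only in size. Counts of genes past 2-fold moved by over 1.5 times under scaling and floor. With equal medians there were 283 higher and 68 lower genes, with quantile normalization 82 lower, with loess centring 65 lower, with a floor at the 20th percentile 250 higher and 643 lower, and with a floor at the 60th percentile 31 lower. The higher count stayed within 1.5 times its 156 under the other alternatives, at 104 to 212, and the lower count at 111 to 208. With a pseudocount of 32 in place of the floor, 145 of the 156 higher and 104 of the 154 lower genes were still called. A signal near the floor gives only a bound, and the arrays have no replicate. No paired analysis was possible because each group has 1 array and the labels give no replicate numbers.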

Other observations

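Of the 156 higher genes, 112 (71.8%) belonged to a gene list, as did 38 of the 154 lower genes (24.7%) and 1073 of the 5911 measured genes (18.2%). The lists were drawn up with the response known, so these shares do not describe it independently. Genes from the 44 higher ones on no list are named here after their values were seen. Gch1, whose enzyme starts the synthesis of the cofactor of nitric oxide synthase, went from 9.40 to 442 (at least 4.78-fold). Ninj1, which encodes a protein that ruptures the membrane of dying cells, went from 179 to 831 (4.65-fold). Bcl10, an adaptor of NF-kB signalling, went from 582 to 1789 (3.08-fold) and Znfx1, an antiviral helicase gene, from 182 to 533 (2.93-fold). Small GTPases of the same subfamily, Gem (201 to 497) and Rrad (637 to 1317), were also past 2-fold.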
